A study of Mus musculus with 8 samples.

Results

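RNA of flow-sorted tubular epithelial cells was compared between Pkd1KO mice fed a high protein diet (HP, 60% protein) and Pkd1KO mice fed a low protein diet (LP, 6% protein), the widest difference in protein intake among the diets sequenced. The comparison holds 5 of the 8 libraries of the series, taken by the diet in their labels: HP F1, HP F2 and HP M against LP F2 and LP M. The other 3 libraries, NP F2, NP KO7 and NP M, came from Pkd1KO mice on a normal protein diet (NP, 18%), which served to estimate the spread and are given as a reference. Each library was made from a pool of 2 to 3 mice, so that the replicate is a pool, with n = 3 for HP and n = 2 for LP.

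All mice, on every diet, carried floxed Pkd1 alleles and a tamoxifen-inducible Cre under the CAGG promoter. This Cre is active throughout the body, so that the deletion is not limited to tubule cells, and no library without the deletion was part of the comparison. Mice of both sexes received tamoxifen at 5 to 6 weeks of age, were housed singly and were then given 2.8 g of their diet per day for 1 week. By the composition tables of the diets, LP also held the most sucrose, while HP was lowest in sucrose and had corn starch left out, so that protein and carbohydrate cannot be told apart in HP against LP. The sort stained macrophages (CD11b, F4/80), the proximal tubule (LTL) and the collecting duct (DBA). Pkd1 itself was at 1.38 and 1.82 FPKM (read fragments relative to transcript length and to the total of the library) in LP F2 and LP M, and at 2.84, 2.65 and 2.11 FPKM in HP F1, HP F2 and HP M. A value over the whole gene does not separate the deleted exons and is no check of the deletion.

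The tubule reabsorbs most of the filtered sugar, amino acids, phosphate and bicarbonate in its proximal part, dilutes the urine in the thick ascending limb, and sets the final excretion of salt, water and acid in the distal convoluted tubule, connecting tubule and collecting duct. Protein in the food is a source of amino acids for energy and glucose, of urea, and of acid that the kidney excretes with ammonia made from glutamine in the proximal tubule. Cysts of polycystic kidneys form from such tubule cells after loss of Pkd1, which codes for polycystin-1.

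Depth, estimated from the steps between low FPKM values, was 27.3 to 35.4 M (mega) fragments per library. Correlation of log2 values was 0.968 to 0.983 among the HP libraries, 0.977 between the LP libraries, and 0.959 to 0.975 between the diets. Mitochondrially encoded genes took 25.6 to 36.3% of the FPKM of a library. Xist, which is transcribed from an inactive X chromosome, was at 45.3 and 23.4 FPKM in HP F1 and HP F2, 1.09 in HP M, 28.8 in LP F2 and 16.3 in LP M. Ddx3y, a gene of the Y chromosome, was at 0.21 and 0.77 FPKM in HP F1 and HP F2, 11.7 in HP M, 0.44 in LP F2 and 9.74 in LP M. The library labelled LP M thus held RNA of both kinds, unlike HP M, and values within the M pair of libraries are to be read with that in mind. In NP KO7, whose label has no sex letter, Xist was at 0.78 and Ddx3y at 7.99 FPKM.

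Over 13566 genes, 2 RNAs passed the threshold (limma, Benjamini-Hochberg adjusted p under 0.05), which is 0.0147% of the genes tested, and both were lower on HP. They are small non-coding RNAs: Snora65, which guides pseudouridylation of RNA, and Gm24924, annotated as a small nuclear RNA. Snora65 was at 4.76 and 5.87 FPKM in LP F2 and LP M and was listed at 0 in the 3 HP and the 3 NP libraries (adjusted p = 0.00334). Gm24924 was at 29.5 and 8.37 FPKM in the same LP libraries and likewise listed at 0 in all others (adjusted p = 0.0210). The library protocol in the labels selects polyadenylated RNA, so these short RNAs were outside its main target. Neither passed with the F2 or M of the label as a replicate block (adjusted p = 0.0528 and 0.0907), and without LP M the adjusted p of Snora65 was 0.0866, while without HP F1 that of Gm24924 was 0.273.

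No protein-coding gene passed the adjusted threshold in either direction. The exact permutation test of 3 libraries against 2 cannot go below a two-sided p of 0.2 for a single gene. Without adjustment, 687 genes (5.06%) were higher on HP and 993 (7.32%) lower at a p under 0.05. All HP libraries lay above both LP libraries in 1742 genes (12.8%) and below them in 2758 (20.3%). The median difference over all genes was -0.04 on the log2(FPKM + 1) scale, and 44.9% of the genes lay above 0. Between HP F2 and LP F2 (the F2 pair) this median was -0.06, with 5769 of 13566 genes above 0. Between HP M and LP M (the M pair) it was -0.13, with 4373 above 0. The balance of higher and lower genes hung on the scaling of the libraries. Of the genes with an unadjusted p under 0.05, 40.9% were higher with FPKM as deposited, 57.4% after scaling to the same FPKM sum, 57.0% with median-of-ratios, 55.9% with quantile normalization and 75.3% after leaving haemoglobin and mitochondrial genes out of the total. These scalings put the median of all genes between -0.04 and 0.09, so that differences below about that size have no fixed direction. Of 167 genes that the naming rule gives, 12 changed sign under at least 1 alternative, and none of the 133 with an unadjusted p under 0.05 did.

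Adding the sex letter of the label to the fit, over 7 libraries without NP KO7, brought 57 genes higher on HP (0.420%) and 132 lower (0.973%) past the adjusted threshold. Of these, 52 and 116 were among the genes with an unadjusted p under 0.05 above. Without LP M, whose RNA was of both kinds, the same fit gave 18 and 14 genes, and the fit without the sex letter and without HP M gave 43 and 12. Of 52 named genes that passed with the sex letter, all kept their sign without LP M, but 38 no longer passed. The 14 that still passed were Snora65, Gm24924, Nccrp1, Pfn3, Tmem207, Aqp6, Slc38a3, Pck1, Pkm, Dbp, Id1, Mdk, Khk and Eno1b, and the calls with the sex letter given below for other genes were lost without LP M. Below, a gene is said to pass only by an adjusted p, and which of these fits gave it is stated each time.

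**Figure D1:**
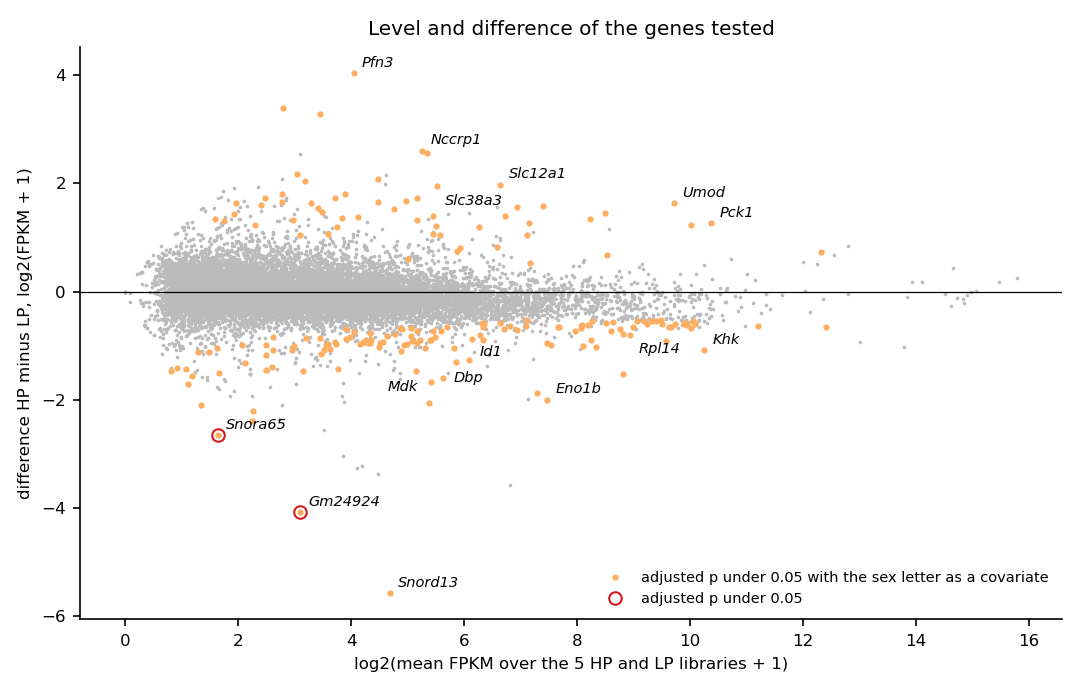
Difference HP minus LP of the 13566 genes tested (vertical axis, log2(FPKM + 1)) against the mean level over the 5 HP and LP libraries (horizontal axis, log2). Red circles mark the 2 RNAs with an adjusted p under 0.05, both listed at 0 on HP, and orange points the 57 genes higher and 132 lower with the sex letter as a covariate.

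The protein-coding genes with the smallest p-values and no overlap between HP and LP were led, among those higher on HP, by Nccrp1, an F-box-like gene. It was at 8.80 and 7.18 FPKM in LP F2 and LP M, against 67.6, 70.7 and 31.9 FPKM in HP F1, HP F2 and HP M. This is a difference of 2.61 ± 0.34 on the log2(FPKM + 1) scale (SE, adjusted p = 0.0627, and 0.00189 with the sex letter). Pfn3, a profilin gene known from testis, was at 1.24 and 0 FPKM on LP and at 39.7, 19.5 and 17.0 FPKM on HP (adjusted p = 0.0627). Its NP libraries, at 35.0, 15.0 and 9.61 FPKM, lay near those of HP. Tmem52, at 1.56 and 2.35 FPKM on LP and 10.4, 8.17 and 6.65 FPKM on HP, instead had NP libraries like those of LP, at 0.66 to 2.81 FPKM. The other genes of this set that were higher on HP were genes of the distal nephron (Slc12a1, Tmem207, Aqp6, Stk39), Mfsd4a, Pcsk6, Slc5a3 and Pck1.

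Among genes lower on HP, Dbp, a transcription factor whose RNA cycles with the clock, was at 71.4 and 91.4 FPKM on LP and at 23.9, 25.3 and 29.4 FPKM on HP (difference -1.59 ± 0.21, adjusted p = 0.0627, and 0.00231 with the sex letter). Its NP libraries were at 187, 269 and 176 FPKM, above both, and the time of collection was not given in the sources used here. Id1, an inhibitor of helix-loop-helix factors and a target of BMP signalling, was at 98.5 and 109 FPKM on LP and at 44.4, 43.0 and 40.4 FPKM on HP. The 3 NP libraries of Id1, at 44.8 to 65.6 FPKM, were all below LP. Mdk, which codes for the growth factor midkine, was at 80.1 and 62.3 FPKM on LP and 17.7, 18.9 and 29.0 FPKM on HP. Ggct, an enzyme that breaks down gamma-glutamyl peptides, was at 78.5 and 99.7 FPKM on LP and 37.9, 28.5 and 40.4 FPKM on HP. Gjb2 (connexin 26) was at 39.0 and 46.5 FPKM on LP, with 20.97, 18.6 and 23.3 FPKM on HP. The rest of this set, Smim22, Mettl1, Rpl14, Map3k7cl, Ankhd1, Nat8f3 and Eaf2, were 1.74 to 2.09 times higher on LP by mean FPKM.

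Sequence upstream of 4 genes is shown because each stands for a group described below and its HP and LP libraries did not overlap: Pck1 for glucose and ammonia formation, Khk for fructose use, Umod for the thick ascending limb and Aqp2 for principal cells. Given are the 250 bases before the RefSeq start, in build GRCm38.p6, 5′ to 3′ on the strand of the gene, at chr2:173152823-173153072 (+) for Pck1, chr5:30921309-30921558 (+) for Khk, chr7:119479263-119479512 (-) for Umod and chr15:99578806-99579055 (+) for Aqp2. Capitals mark matches, on either strand, to the E-box CACGTG, the cAMP response half-site TGACGT and the HNF1 half-site GTTAAT.
Pck1: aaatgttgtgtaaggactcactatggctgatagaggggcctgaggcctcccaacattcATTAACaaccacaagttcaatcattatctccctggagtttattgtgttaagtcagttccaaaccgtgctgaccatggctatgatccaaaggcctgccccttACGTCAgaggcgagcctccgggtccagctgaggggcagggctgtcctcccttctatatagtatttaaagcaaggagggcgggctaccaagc
Khk: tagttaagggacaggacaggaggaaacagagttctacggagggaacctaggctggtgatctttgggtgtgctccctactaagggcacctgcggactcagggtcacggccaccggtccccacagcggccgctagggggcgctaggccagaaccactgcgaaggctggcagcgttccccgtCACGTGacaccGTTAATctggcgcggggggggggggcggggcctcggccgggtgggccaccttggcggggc
Umod: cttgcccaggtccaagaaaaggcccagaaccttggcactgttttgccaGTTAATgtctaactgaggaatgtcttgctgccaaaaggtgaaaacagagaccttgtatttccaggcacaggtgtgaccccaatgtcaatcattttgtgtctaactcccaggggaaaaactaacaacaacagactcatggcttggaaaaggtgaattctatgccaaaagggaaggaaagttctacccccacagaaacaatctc
Aqp2: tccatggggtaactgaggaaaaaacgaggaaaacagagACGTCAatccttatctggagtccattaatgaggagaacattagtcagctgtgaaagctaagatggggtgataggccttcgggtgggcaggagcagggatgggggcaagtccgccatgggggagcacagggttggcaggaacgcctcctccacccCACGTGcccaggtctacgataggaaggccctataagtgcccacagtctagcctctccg
The E-box began 71 bases before the start of Khk and 58 bases before that of Aqp2. The cAMP response half-site began 91 bases before the start of Pck1 and 212 before that of Aqp2. The HNF1 half-site began 192, 60 and 202 bases before the starts of Pck1, Khk and Umod, and none of these matches overlapped another. Of 32851 windows of the same length before RefSeq starts, 6.02% held the E-box, 6.47% the cAMP response half-site and 6.43% the HNF1 half-site. These matches describe the letters only, and binding was not measured.

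Marker lists of the nephron segments had different medians in HP against LP. Markers of the thick ascending limb were higher in all but 1 member, those of the distal convoluted tubule, connecting tubule and collecting duct were mostly higher, those of the early proximal tubule (S1) were moderately higher, and those of its late part (S3) were mostly lower. Medians of the lists on the log2 scale were 1.56 for the thick ascending limb, 0.63 for the distal convoluted tubule, 0.57 for the connecting tubule, 0.60 for principal cells, 0.72 for intercalated cells, 0.42 for S1, -0.02 for S2 and -0.68 for S3, beside -0.04 for all genes. A list of markers shared by all proximal segments had a median of -0.17, which another scaling took to 0.00. No marker of these lists passed the adjusted threshold in the fit over all 8 libraries. In sorted pools, more cells of a segment and more RNA of these genes per cell cannot be told apart.

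**Figure D2:**
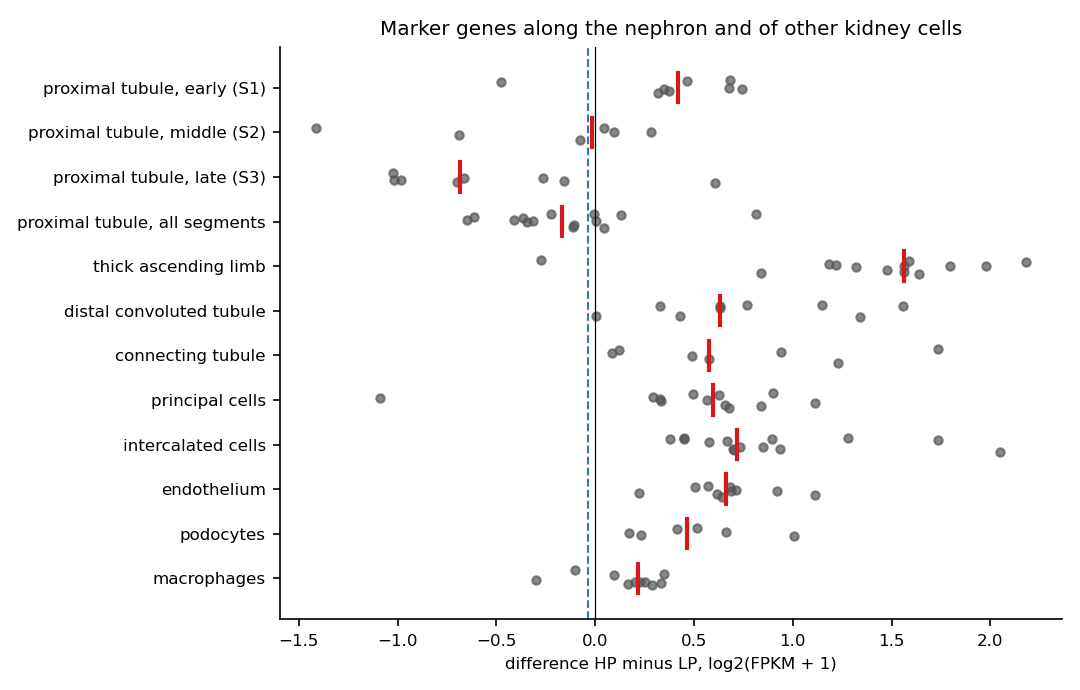
Differences HP minus LP (horizontal axis, log2(FPKM + 1)) of marker genes, 1 point per gene, by nephron segment and for endothelium, podocytes and macrophages. Red bars are list medians, from -0.68 for S3 to 1.56 for the thick ascending limb, and the dashed line is the median of all genes at -0.04.

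In the thick ascending limb, which reabsorbs salt without water, 12 of 13 measured markers lay above 0 and all 12 had HP libraries above both LP libraries, where 12.8% of all genes did. An unadjusted p under 0.05 was reached by 11 of the 13, all higher, against 5.06% of all genes higher at that p. With the sex letter in the fit 9 passed as higher, against 0.420% of all genes. Slc12a1, the sodium-potassium-chloride cotransporter of this segment, was at 33.8 and 32.2 FPKM in LP F2 and LP M and at 189, 163 and 76.1 FPKM in HP F1, HP F2 and HP M. The LP libraries were close together, and HP M, the lowest HP library, was still above them, for a 4.32-fold higher mean on HP (log2 difference 1.98 ± 0.33, adjusted p = 0.167, with the sex letter 0.0321). Umod, which codes for uromodulin, the most abundant protein of normal urine, was at 368 and 337 FPKM on LP and at 1461, 1384 and 653 FPKM on HP (1.64 ± 0.43, adjusted p = 0.251, with the sex letter 0.0321). HP M was again lowest and lay within the range of the NP libraries of Umod, 576 to 1367 FPKM.

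Tmem207 was low in level but had the largest difference of this list, at 1.17 and 1.94 FPKM on LP and 12.4, 14.3 and 6.37 FPKM on HP (2.18 ± 0.30, adjusted p = 0.0627). Kcnj1, the potassium channel ROMK that returns potassium to the lumen, was at 17.0 and 18.1 FPKM on LP and 59.5, 48.2 and 32.5 FPKM on HP. Bsnd (barttin), a subunit of chloride channels, was at 4.22 and 4.40 FPKM on LP and 16.0, 17.0 and 9.61 FPKM on HP. Ptger3, a prostaglandin E2 receptor, was at 5.21 and 4.05 FPKM on LP against 28.3, 21.5 and 10.2 FPKM on HP. In each of these genes the groups did not overlap. Ppp1r1b (DARPP-32), an inhibitor of protein phosphatase 1 that the thick ascending limb also expresses, was at 11.6 and 10.7 FPKM on LP and 40.0, 45.9 and 21.6 FPKM on HP (1.53 ± 0.32, adjusted p = 0.198, with the sex letter 0.0321).

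The exception of the list was Cldn10, a claudin that also occurs in the proximal tubule, at 209 and 186 FPKM on LP and 166, 180 and 144 FPKM on HP. HP M was the lowest HP library in 13 of 13 markers of the thick ascending limb, against 44.0% of all genes, and without HP M the adjusted p of Slc12a1 was 0.00448. The NP mean lay between those of LP and HP in 10 of the 13 markers and in 38.0% of all genes. The median of the list was 1.75 between HP F2 and LP F2 and 0.93 between HP M and LP M, with 12 of 13 markers above 0 in both pairs. Its summed level was 734 to 807 FPKM on LP, 1053 to 2169 on NP and 1227 to 2549 on HP.

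All 9 markers of the distal convoluted tubule lay above 0, where 44.9% of all genes did. An unadjusted p under 0.05 was reached by 5 of them, against 5.06% of all genes higher at that p. Slc12a3, the thiazide-sensitive sodium chloride cotransporter, was at 40.9 and 40.5 FPKM on LP and 191, 122 and 77.9 FPKM on HP (1.56 ± 0.43, adjusted p = 0.252). Its NP libraries ranged from 67.7 to 180 FPKM and overlapped with HP only. Stk39, the kinase SPAK that activates this cotransporter and acts downstream of WNK kinases, was at 3.41 and 3.89 FPKM on LP and 11.5, 10.2 and 6.75 FPKM on HP, and Wnk1 at 29.6 and 32.7 FPKM on LP and 75.6, 49.9 and 40.8 FPKM on HP. Trpm6, a channel for magnesium uptake, was at 0.71 and 0.76 FPKM on LP and 2.23, 1.58 and 1.34 FPKM on HP. None of the 9 markers passed with the sex letter, and the adjusted p of Slc12a3 in that fit was 0.0739.

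All 7 connecting tubule markers lay above 0. Calb1, a calcium buffer of calcium-reabsorbing cells, was at 15.2 and 10.6 FPKM on LP and 79.6, 47.0 and 23.4 FPKM on HP (1.73 ± 0.40, adjusted p = 0.219, with the sex letter 0.0413). Klk1, the tissue kallikrein, was at 736 and 421 FPKM on LP and 1419, 1679 and 934 FPKM on HP, and its adjusted p was 0.0321 with the sex letter. The median of these 7 genes was 0.61 in the F2 pair and 0.15 in the M pair, with 7 and 6 members above 0.

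Principal cells take up sodium through ENaC and water through aquaporins, and 11 of their 12 markers were above 0. At an unadjusted p under 0.05, 8 of the 12 were higher, as were 5.06% of all genes. Aqp2, the water channel that vasopressin moves to the apical membrane, was at 79.4 and 91.9 FPKM on LP and 226, 200 and 141 FPKM on HP (1.11 ± 0.26, adjusted p = 0.219). NP libraries of Aqp2, at 179 to 305 FPKM, overlapped with HP and lay above LP. The vasopressin receptor Avpr2 was at 3.55 and 3.87 FPKM on LP and 7.52, 6.28 and 5.19 FPKM on HP. Of the ENaC subunits, Scnn1a was at 6.04 and 6.17 FPKM on LP and 24.8, 18.6 and 11.2 FPKM on HP (1.37 ± 0.32, with the sex letter adjusted p = 0.0423), Scnn1b at 6.43 and 6.12 FPKM against 15.8, 14.0 and 8.88, and Scnn1g at 2.90 and 2.80 FPKM against 9.29, 5.87 and 3.60. The groups did not overlap in any of the 3 subunits. Aqp4, named after its values were seen as the only principal cell marker below 0, was at 20.7 and 10.5 FPKM on LP and 9.91, 8.41 and 3.0 FPKM on HP. It is also expressed in the proximal tubule of mice, and passed with the sex letter (adjusted p = 0.0321).

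Intercalated cells secrete acid or bicarbonate, and all 14 of their measured markers lay above 0. Of these, 10 were higher at an unadjusted p under 0.05 (5.06% of all genes) and 11 had all HP libraries above LP (12.8% of all genes). Slc4a1, the chloride-bicarbonate exchanger on the basolateral side of acid-secreting cells, was at 1.26 and 1.28 FPKM on LP and 8.18, 7.30 and 4.64 FPKM on HP (1.73 ± 0.29, adjusted p = 0.167, with the sex letter 0.0257). Red cells carry the same protein, and globin RNA was also higher on HP, as given below, so the part of red cell RNA in the Slc4a1 values was not tested. Aqp6, a water channel inside these cells, was at 2.01 and 2.14 FPKM on LP and 16.1, 11.9 and 8.29 FPKM on HP (2.05 ± 0.32, adjusted p = 0.135, with the sex letter 0.0155). Of the subunits of the proton pump, Atp6v1b1 was at 9.06 and 8.76 FPKM on LP and 36.9, 24.5 and 13.5 FPKM on HP, and Atp6v0a4 at 70.0 and 67.7 FPKM on LP and 119, 106 and 87.6 FPKM on HP. Foxi1, the transcription factor that specifies these cells, was at 1.60 and 1.35 FPKM on LP and 5.27, 3.33 and 2.88 FPKM on HP. HP M was the lowest HP library in 14 of 14 markers, and the median of the list was 0.80 in the F2 pair and 0.52 in the M pair.

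**Figure D3:**
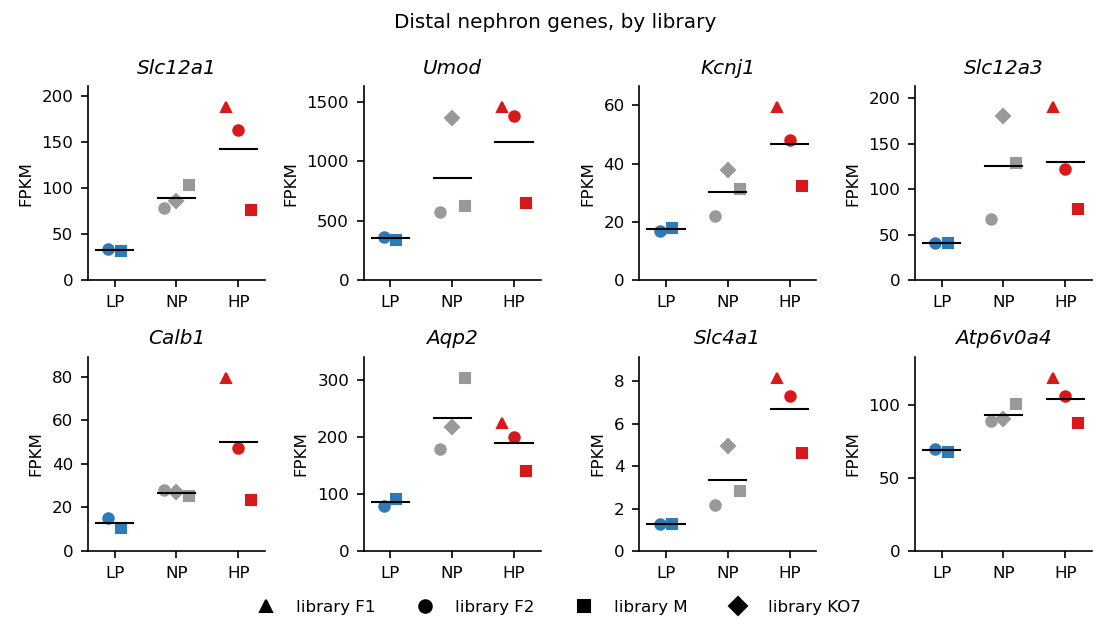
FPKM of 8 genes of the thick ascending limb, distal convoluted tubule, connecting tubule and collecting duct in each library (vertical axes from 0), with black lines at diet means. Every HP library lies above both LP libraries in all 8 genes, HP M (red square) is the lowest HP library, and at least 1 NP library (grey) lies within the HP range or above it in all 8 genes.

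In the proximal tubule, 7 of 8 S1 markers were above 0 and 7 of 8 S3 markers below. Slc5a2, the glucose cotransporter SGLT2 of the early segment, was at 266 and 272 FPKM on LP and 445, 385 and 466 FPKM on HP (0.68 ± 0.16, adjusted p = 0.219, with the sex letter 0.0362). Here HP M was the highest HP library. Slc7a8, a basolateral exchanger of neutral amino acids, was at 29.4 and 28.1 FPKM on LP and 72.4, 45.6 and 35.0 FPKM on HP, and Slc5a12, a lactate cotransporter, at 66.3 and 82.6 FPKM on LP and 129, 92.6 and 142 FPKM on HP. Against the rest of the S1 list, Slc2a2, the basolateral glucose carrier GLUT2, was at 114 and 111 FPKM on LP and 85.4, 74.3 and 82.0 FPKM on HP (-0.48 ± 0.19, adjusted p = 0.355).

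In S3, Slc5a10, a cotransporter of mannose and fructose, was at 575 and 358 FPKM on LP and 247, 249 and 179 FPKM on HP (-1.02 ± 0.38, adjusted p = 0.336, with the sex letter 0.0257). The most abundant S3 marker, Acy3, an aminoacylase, was at 427 and 889 FPKM on LP and 269, 254 and 796 FPKM on HP, higher in both M libraries than in all 3 F libraries. Androgens raise several S3 genes of the mouse, and the 8 androgen-responsive genes listed separately had a median of -0.76 over all libraries but 0.23 in the F2 pair and 0.02 in the M pair. For the S3 list the medians were -0.45 in the F2 pair and -0.27 in the M pair, where 2 of 8 markers lay above 0. Kap, the androgen-driven gene with the highest level, ranged from 2545 FPKM in HP F1 to 31207 in HP M, and was at 7213 and 25665 FPKM in LP F2 and LP M. Lrp2 (megalin), the endocytic receptor of all proximal segments, was at 111 and 105 FPKM on LP and 99.8, 72.4 and 85.1 FPKM on HP (-0.34 ± 0.24, adjusted p = 0.605).

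Markers of cells other than tubule cells were present in the sorted libraries and partly moved with the diet. All 10 endothelial markers lay above 0 (median 0.66), with a summed level of 86.2 and 96.7 FPKM in LP F2 and LP M and of 188, 161 and 93.8 FPKM in HP F1, HP F2 and HP M. In the M pair their median was -0.02, beside -0.13 over all genes. The 6 podocyte markers had a median of 0.46 and summed to 37.7 and 45.3 FPKM on LP and 44.5 to 107 FPKM on HP. In the M pair the podocyte median was -0.09, with 1 of 6 markers above 0, beside -0.13 and 4373 of 13566 over all genes. The median of the 10 macrophage markers was 0.21, 8 lay above 0, none had an unadjusted p under 0.05, and they summed to 196 to 214 FPKM on LP and 211 to 260 on HP. Adgre1, named after its values were seen because it codes for the F4/80 stained in the sort, was at 0.90 and 0.80 FPKM on LP and 1.22 to 1.40 FPKM on HP. Erythroid genes (5 measured, 4 above 0) summed to 129 to 151 FPKM on LP and 227 to 427 FPKM on HP, and Hbb-bs alone was at 59.98 and 53.1 FPKM on LP and 97.9, 166 and 94.9 FPKM on HP. Globin genes are close copies of each other, so single values are uncertain. No marker of these lists was at 0 in an HP or LP library, and their part in the differences of tubule genes was not tested.

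Of the transporter lists, those for salt and acid-base transport had the highest medians. All 24 genes measured for sodium, potassium and chloride transport lay above 0 (median 0.50, and 0.54 to 0.65 with other scalings). Of these, 13 were higher at an unadjusted p under 0.05 and none lower, against 5.06% and 7.32% of all genes. Acid-base transporters and carbonic anhydrases followed with 17 of 18 above 0 (median 0.51). Rhbg, an ammonia channel of the distal nephron, was at 7.05 and 5.79 FPKM on LP and 20.96, 17.3 and 11.1 FPKM on HP (1.20 ± 0.25, adjusted p = 0.198, with the sex letter 0.0321). Atp4a, the proton-potassium pump known from the stomach, was at 3.34 and 2.72 FPKM on LP and 16.4, 15.8 and 5.60 FPKM on HP. Car15, a carbonic anhydrase, was at 27.1 and 19.5 FPKM on LP and 85.3, 93.8 and 32.2 FPKM on HP. Car2, the most abundant gene of that list, was at 244 and 281 FPKM on LP and 362, 289 and 257 FPKM on HP, where the groups overlapped.

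Of 15 genes for water, urea and osmolytes, 7 had an unadjusted p under 0.05, all higher, against 5.06% of all genes. Slc5a3, which takes up myo-inositol as an osmolyte, was at 2.94 and 3.16 FPKM on LP and 11.5, 10.3 and 6.43 FPKM on HP (1.33 ± 0.25, adjusted p = 0.176, with the sex letter 0.0449). Slc6a12, the betaine carrier, was at 1.03 and 0.97 FPKM on LP and 4.20, 4.40 and 2.22 FPKM on HP. The urea transporters Slc14a1 and Slc14a2 were low throughout, with Slc14a1 at 0.57 and 0.50 FPKM on LP and 1.86, 1.63 and 0.84 on HP. Aqp1, the water channel of proximal tubule and thin limb, was at 204 and 176 FPKM on LP and 202, 188 and 197 FPKM on HP, a difference of 0.04 with a 95% interval of -0.30 to 0.38, and of -0.06 without LP M.

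Of 30 amino acid carriers, 16 lay above 0, with a median of 0.07, 7 were higher at an unadjusted p under 0.05 and none lower. Over all genes, 5.06% were higher and 7.32% lower at that p. Slc38a3 (SNAT3), which takes up glutamine at the basolateral side for ammonia formation, was at 15.4 and 13.0 FPKM on LP and 89.0, 79.4 and 26.9 FPKM on HP. HP M stood well below the other HP libraries, and the mean was 4.59-fold higher on HP (1.96 ± 0.67, adjusted p = 0.320, with the sex letter 0.0326). Among the NP libraries Slc38a3 ranged from 8.37 FPKM in KO7 to 48.9 in F2. Slc43a2, a carrier of large neutral amino acids, was at 10.6 and 14.1 FPKM on LP and 37.7, 27.9 and 22.0 FPKM on HP, and Slc1a5, an exchanger of glutamine, at 6.74 and 6.79 FPKM on LP and 20.01, 13.3 and 8.82 FPKM on HP. Cltrn (collectrin), the most abundant gene of the list and the partner that brings apical carriers to the brush border, was at 1303 and 1099 FPKM on LP and 890, 1063 and 1331 FPKM on HP, where the groups overlapped.

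Sugar carriers were split, with 7 of 12 above 0 and medians of 0.03 in the fit and -0.13 and -0.03 in the F2 and M pairs. The facilitative carriers Slc2a4 (GLUT4), at 3.10 and 2.34 FPKM on LP and 12.5, 12.6 and 5.72 FPKM on HP, and Slc2a1 (GLUT1), at 14.4 and 15.2 FPKM on LP and 24.5, 23.2 and 18.1 FPKM on HP, were higher. Slc2a5, the fructose carrier GLUT5, was at 105 and 84.3 FPKM on LP and 70.9, 58.2 and 31.5 FPKM on HP (-0.88 ± 0.40, adjusted p = 0.418, with the sex letter 0.0367). For monocarboxylates, Slc16a7 (MCT2) was at 9.0 and 7.52 FPKM on LP and 37.8, 34.2 and 17.4 FPKM on HP (1.66 ± 0.34, adjusted p = 0.197, with the sex letter 0.0306). Of 25 organic ion and drug transporters of the proximal tubule, 21 lay below 0 (median -0.33), where 44.9% of all genes lay above 0. Their median was -0.26 in the F2 pair and -0.14 in the M pair, beside -0.06 and -0.13 over all genes. Only Slco1a6 had an unadjusted p under 0.05, against 7.32% of all genes lower at that p. It was at 80.8 and 81.8 FPKM on LP and 41.2, 50.6 and 71.3 FPKM on HP. In phosphate transport, Slc34a1 (NaPi-IIa) overlapped as well, at 1601 and 1998 FPKM on LP and 2444, 1866 and 2422 FPKM on HP, whereas Slc34a3 (NaPi-IIc) was at 43.9 and 36.3 FPKM on LP and 64.8, 57.4 and 53.5 FPKM on HP. The calcium pump Atp2b1 was the only gene of the 18 for phosphate, sulfate, calcium and magnesium that was lower at an unadjusted p under 0.05. Over all genes, 7.32% were lower at that p. Atp2b1 was at 26.3 and 24.5 FPKM on LP and 15.6, 15.6 and 20.3 FPKM on HP.

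The enzymes that turn glutamine into ammonia and glucose precursors were divided. Of 14 genes, 5 were higher at an unadjusted p under 0.05, among them Slc38a3, Pck1, Glud1 and Ogdh, and 1 was lower (Glul). The shares over all genes were 5.06% higher and 7.32% lower. Pck1, the cytosolic phosphoenolpyruvate carboxykinase that removes the carbon of glutamine towards glucose, was at 669 and 749 FPKM in LP F2 and LP M and at 2195, 1706 and 1329 FPKM in HP F1, HP F2 and HP M. The LP range met that of the NP libraries (617 to 843 FPKM), and all HP libraries lay above both (2.46-fold against LP, 1.27 ± 0.24, adjusted p = 0.176, with the sex letter 0.0260). Its window shown above held a cAMP response half-site and an HNF1 half-site.

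Glud1, the glutamate dehydrogenase of mitochondria, was at 222 and 189 FPKM on LP and 721, 512 and 257 FPKM on HP (1.15 ± 0.39, adjusted p = 0.319). Ogdh, a subunit of the 2-oxoglutarate dehydrogenase complex, was at 66.1 and 89.7 FPKM on LP and 126, 101 and 105 FPKM on HP. Glul, the glutamine synthetase that runs the opposite way and uses up ammonia, was at 236 and 197 FPKM on LP and 178, 137 and 115 FPKM on HP (-0.61 ± 0.23, adjusted p = 0.337, with the sex letter 0.0567). Its NP libraries, at 222 to 339 FPKM, lay above HP.

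The other enzymes of gluconeogenesis stood apart from Pck1. Of 12 genes, 9 lay below 0, and 4 were lower at an unadjusted p under 0.05 (7.32% of all genes), among them Fbp1, Fbp2 and Slc37a4. The median of -0.15 was -0.03 with quantile normalization and 0.00 with haemoglobin and mitochondrial genes left out of the total. Fbp1, the fructose bisphosphatase of liver and kidney, was at 1422 and 1057 FPKM on LP and 928, 799 and 692 FPKM on HP (-0.61 ± 0.19, adjusted p = 0.294, with the sex letter 0.0367). Slc37a4, which brings glucose 6-phosphate into the endoplasmic reticulum, was at 198 and 181 FPKM on LP and 142, 142 and 167 FPKM on HP.

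Genes for fructose use lay mostly below 0. Of 11 genes, 9 lay below 0 (median -0.49, and -0.45 to -0.34 with other scalings). At an unadjusted p under 0.05, 4 were lower (7.32% of all genes), and 5 passed as lower with the sex letter (0.973% of all genes). Khk, ketohexokinase, which makes fructose 1-phosphate, was at 2021 and 1555 FPKM on LP and 828, 914 and 778 FPKM on HP. The HP libraries were close to each other and to the NP libraries of Khk (824 to 1203 FPKM), for a 2.13-fold higher mean on LP (-1.08 ± 0.21, adjusted p = 0.18, with the sex letter 0.00989). Tkfc, the triokinase of a later step, was at 280 and 238 FPKM on LP and 194, 158 and 144 FPKM on HP. For Tkfc the adjusted p was 0.319, and 0.0427 with the sex letter.

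Of 19 glycolysis genes, 13 lay above 0, with 6 higher and 1 lower at an unadjusted p under 0.05, against 5.06% and 7.32% of all genes. Among the higher genes, Hk1, a hexokinase, was at 7.51 and 7.67 FPKM on LP and 29.0, 23.7 and 14.2 FPKM on HP (1.38 ± 0.31, adjusted p = 0.219, with the sex letter 0.0331), and Pkm, the pyruvate kinase of most tissues outside the liver, at 75.2 and 69.8 FPKM on LP and 217, 234 and 108 FPKM on HP (1.27 ± 0.34, with the sex letter 0.0341). Gapdh, by far the most abundant, was at 2427 and 2411 FPKM on LP and 2220, 2178 and 1849 FPKM on HP. Eno1b was the lower gene, at 354 and 257 FPKM on LP and 114, 129 and 27.8 FPKM on HP, but it is a near copy of Eno1, which, looked up for this reason, was at 719 and 616 FPKM on LP and 746, 682 and 527 FPKM on HP, so the division of reads between them is uncertain.

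Fatty acid oxidation and ketogenesis had 20 of 29 genes below 0 (median -0.14, and -0.10 to 0.02 with other scalings). An unadjusted p under 0.05 was reached by 3 of the 29, all lower, a share near the 7.32% of all genes. Over all genes, 44.9% lay above 0. Among the 3 lower genes, Acadl and Decr1 take part in beta-oxidation. Acadl was at 128 and 134 FPKM on LP and 103, 96.3 and 110 FPKM on HP. Decr1 was at 76.3 and 81.0 FPKM on LP and 49.2, 55.4 and 68.6 FPKM on HP. Fatty acid and sterol synthesis had 6 of 25 genes higher at an unadjusted p under 0.05 (5.06% of all genes), among them Acacb, Insig1, Scd2, Fdps and Gpam. Its median was 0.13 in the fit, 0.19 in the F2 pair and -0.12 in the M pair. Over all genes the pair medians were -0.06 and -0.13.

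**Figure D4:**
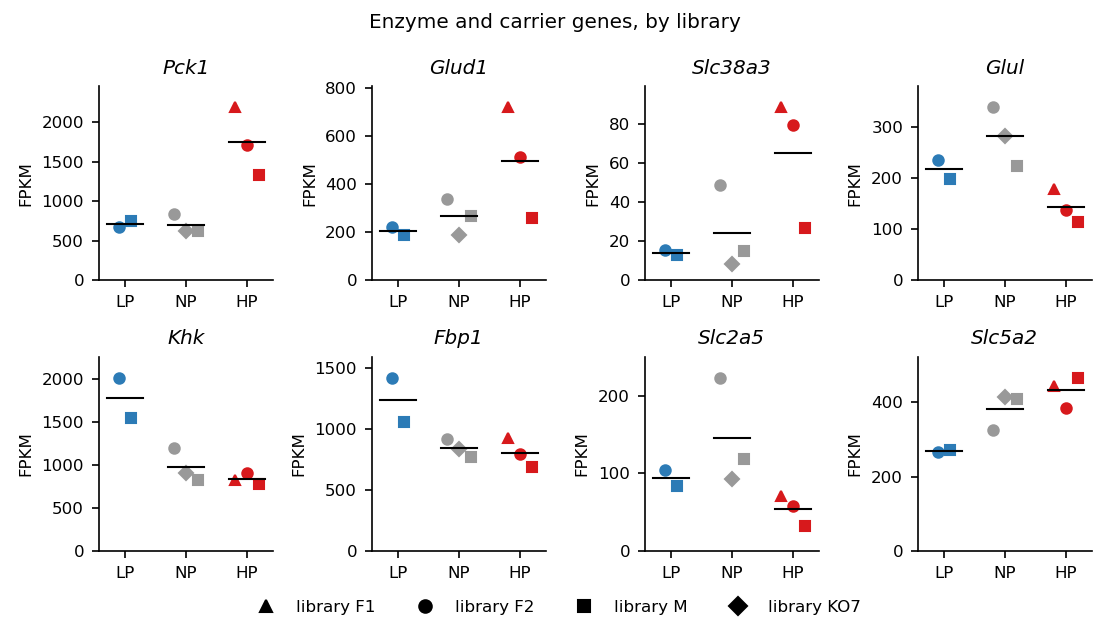
FPKM of 8 genes of enzymes and carriers in each library (vertical axes from 0), with black lines at diet means. All HP libraries lie above LP in Pck1, Glud1, Slc38a3 and Slc5a2 and below LP in Glul, Khk, Fbp1 and Slc2a5, and in Khk and Fbp1 the NP libraries (grey) lie below LP as well.

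Among enzymes of amino acid breakdown, single genes were higher or lower. No list of these enzymes had a median above 0 with FPKM as deposited. Branched-chain breakdown had 8 of 19 genes above 0, where 44.9% of all genes were. At an unadjusted p under 0.05, Acadsb, Bckdhb and Ivd were higher (5.06% of all genes) and Pccb lower (7.32% of all genes). Bckdhb, a subunit of the dehydrogenase complex that commits these amino acids to oxidation, was at 35.2 and 32.8 FPKM on LP and 54.6, 54.9 and 40.2 FPKM on HP. Breakdown of aromatic amino acids and tryptophan had 14 of 16 genes below 0 (median -0.30), and 4 were lower at an unadjusted p under 0.05 (7.32% of all genes). Among these, Kmo, which hydroxylates kynurenine, was at 47.1 and 44.3 FPKM on LP and 33.9, 31.7 and 34.4 FPKM on HP (-0.44 ± 0.14, adjusted p = 0.288). None of these 16 genes passed with the sex letter.

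Gldc, the glycine decarboxylase of the glycine cleavage system, was at 25.4 and 24.6 FPKM on LP and 69.2, 53.3 and 41.9 FPKM on HP (1.07 ± 0.28, adjusted p = 0.251, with the sex letter 0.0321). Gcsh, which carries the intermediate of the same system, was lower, at 170 and 151 FPKM on LP and 135, 130 and 118 FPKM on HP. Of 15 genes for oxidation of proline, lysine and D-amino acids, 7 lay above 0 (median -0.002, and 0.04 to 0.15 with other scalings). At an unadjusted p under 0.05, 2 were higher (5.06% of all genes) and 1 lower (7.32%). The higher ones were Prodh, at 120 and 116 FPKM on LP and 166, 148 and 167 on HP, and Aldh4a1, at 73.1 and 73.5 FPKM on LP and 116, 99.6 and 84.8 on HP. The lower one, Hoga1, was at 104 and 100 FPKM on LP and 75.2, 80.1 and 81.6 on HP. None of these 3 genes had overlap. Mat2a, which makes S-adenosylmethionine, was at 205 and 292 FPKM on LP and 126, 99.9 and 162 FPKM on HP (-0.94 ± 0.25, adjusted p = 0.252, with the sex letter 0.0260). Gamt, the methyltransferase that forms creatine, was at 72.3 and 43.9 FPKM on LP and 34.0, 30.3 and 25.8 FPKM on HP (-0.90 ± 0.24, with the sex letter adjusted p = 0.0257). Of 8 measured targets or effectors of the amino acid shortage response, Atf4 (48.6 and 62.3 FPKM on LP, 42.2, 34.1 and 40.3 on HP) and Ddit3 (16.8 and 26.8 FPKM on LP, 15.6, 14.6 and 11.2 on HP) were lower at an unadjusted p under 0.05. Over all genes, 7.32% were lower at that p.

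Glutathione synthesis and NRF2 target genes were evenly divided, 7 above and 7 below 0. Only Gss, glutathione synthetase, had an unadjusted p under 0.05, against 7.32% of all genes lower at that p. It was at 163 and 167 FPKM on LP and 113, 110 and 147 FPKM on HP. Among clock genes, Bhlhe40, a repressor, was at 24.2 FPKM in both LP libraries and at 14.2, 12.7 and 9.02 FPKM on HP (-0.98 ± 0.24, adjusted p = 0.227, with the sex letter 0.0347). The 8 measured injury and repair genes had a median of 0.02. Only Clu (clusterin) had an unadjusted p under 0.05, against 5.06% of all genes higher at that p. It was at 67.5 and 50.1 FPKM on LP and 104, 109 and 66.2 FPKM on HP, with overlap. Spp1, osteopontin, was at 992 and 519 FPKM on LP and 1282, 1276 and 445 FPKM on HP. Of 12 proliferation genes 9 lay below 0 (median -0.14), where 44.9% of all genes lay above 0. Only Mcm6, a subunit of the replicative helicase, had an unadjusted p under 0.05, against 7.32% of all genes lower. Mcm6 was at 6.89 and 9.69 FPKM on LP and 5.08, 3.61 and 5.69 FPKM on HP.

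**Figure D5:**
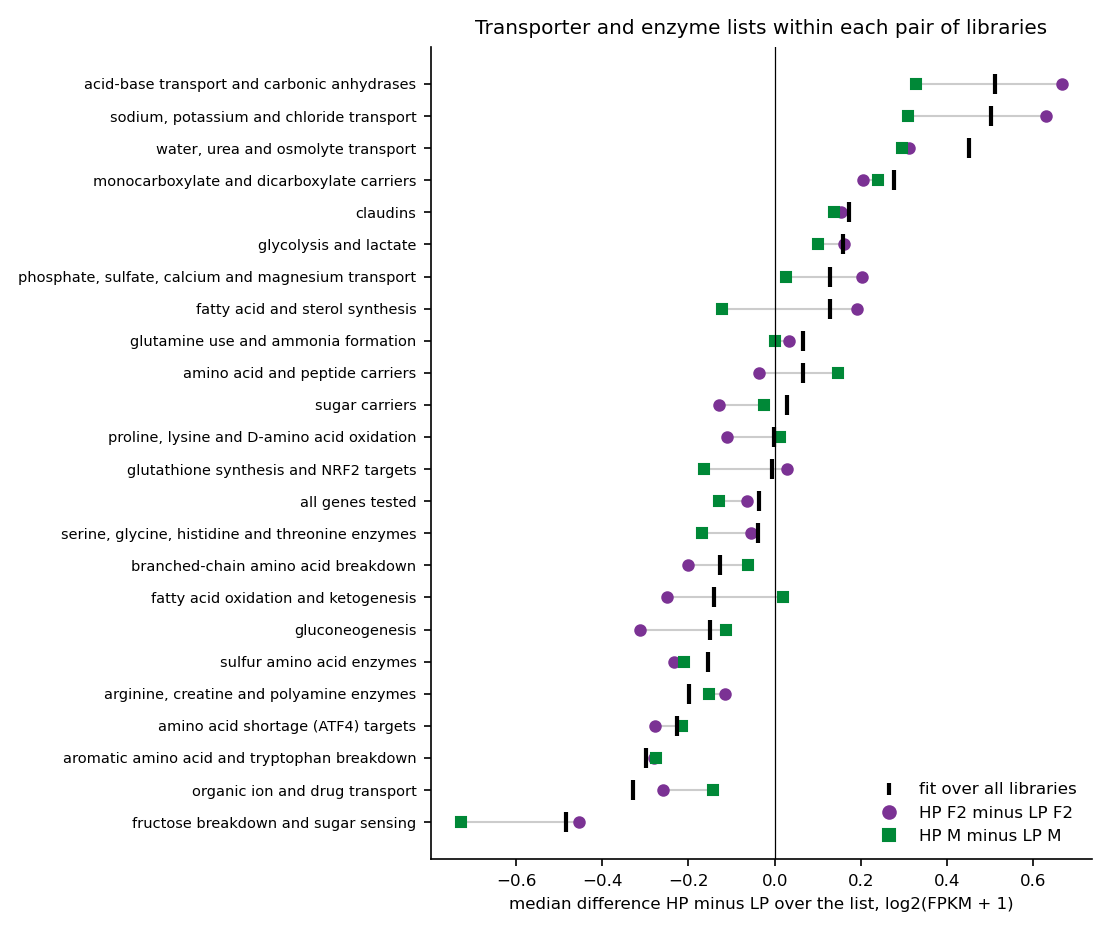
Medians of the HP minus LP difference (horizontal axis, log2(FPKM + 1)) over transporter and enzyme lists, in the fit over all libraries (black bars), in the F2 pair (purple circles) and in the M pair (green squares). Acid-base and sodium, potassium and chloride transport lie highest (0.51 and 0.50) and fructose use lowest (-0.49), on the same side of 0 in both pairs, while fatty acid synthesis, fatty acid oxidation and amino acid carriers change side between the pairs. Over all genes the median is -0.06 in the F2 pair and -0.13 in the M pair.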

How the data were processed

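RNA from sorted tubule cells of Pkd1KO mice was sequenced paired-end after oligo(dT) selection. Per the labels and the study's methods, the authors used Trim Galore 0.6.7 for trimming and RSEM 1.3.3 for the deposited FPKM, with GENCODE M26 on GRCm39, unfiltered and relative to each library's own total. The kit is named differently in the labels and the methods, so the use of strand is uncertain. Gene symbols came from GENCODE M21 (52093 of 53700 IDs matched). No counts were used. Depth was estimated from the steps between low values, of which 80.1 to 86.7% lay within 0.15 of a whole read, too few for a count test.

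A gene was kept where 2 or more of the 8 libraries reached 1 FPKM. log2(FPKM + 1) was tested with limma 3.58.1 in R 4.3.3 (trended variance prior, 5 residual and 4.11 prior degrees of freedom), with all 8 libraries, 1 mean per diet and Benjamini-Hochberg adjustment over 13566 genes. This scale understates changes of low genes. P-values measure the spread between pools. On simulated data for HP against LP over these genes, 90 of 200 genes changed 2-fold and 184 of 200 changed 4-fold were recovered, with 3 and 9 false calls.

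Libraries with the same F2 or M label deviated together from their diet means (r = 0.14 to 0.35 over 6 pairs). Pairs with different labels ranged from -0.38 to 0.25, and HP F1 was at 0.25 with NP F2 and 0.20 with LP F2. The deviations of the 2 LP libraries mirror each other, so the pairs are not independent. These values cannot tell a pairing by label from a shared sex letter. The label was taken as pairing libraries in 1 alternative fit only, and the main fit has no block. Alternatives were other pseudocounts (0.1, 0.5), filters, scalings and variance models, only the 5 HP and LP libraries, the label as a block, the sex letter as a covariate, and leaving out each library. The fit with the sex letter and without LP M was chosen after seeing the data.

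Members, gene lists and tests were chosen with earlier results of these data known. Named were every gene past the threshold, up to 12 protein-coding genes per direction with the smallest p, a mean of at least 5 FPKM and no overlap, per list up to 6 genes with an unadjusted p under 0.05 and the most abundant one, and a fixed set (Pkd1, Umod, Slc12a1, Slc12a3, Aqp2, Lrp2, Slc38a3, Pck1, Ppp1r1b, Khk, Slc2a5, Glul, Glud1, Xist and Ddx3y), from which the text describes a selection. Some genes that the rule names are not reported here.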

Additional observations from a re-analysis of the deposited data

Results flagged for a closer look

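In 7 genes the difference HP minus LP had one sign in the F libraries and the other in the M pair. For Ehd3, an endothelial gene, it was 1.62 and 1.51 on the log2(FPKM + 1) scale for HP F1 and HP F2 against LP F2, and -0.0428 for HP M against LP M. For Pecam1, an endothelial gene, it was 1.14 and 0.90 in the F libraries and -0.0426 in the M pair. For Car2 it was 0.57 and 0.25 in the F libraries and -0.125 in the M pair, and for Spp1 0.37 and 0.36 against -0.223. For 3 genes it was below 0 in the F libraries and above 0 in the M pair, at -0.02 and -0.12 against 0.160 for Aqp1, -0.55 and -0.29 against 0.277 for Cltrn, and -1.50 and -0.96 against 0.282 for Kap. The difference between the sexes was not tested, since each diet had 1 M library and LP M also held Xist RNA.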

How the results depend on the processing

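The number of genes past the adjusted threshold was small under most settings and moved with nearly all of them, from 0 higher and 2 lower on HP. Equal FPKM sums gave 5 and 4 genes, and the counts were 5 and 5 with haemoglobin and mitochondrial genes left out of the total, 14 and 22 with array weights, 3 and 5 with only the 5 HP and LP libraries, 57 and 132 with the sex letter, and 18 and 14 with the sex letter and without LP M. Genes lower on HP numbered 1 with a pseudocount of 0.1, with median-of-ratios and with quantile normalization, 8 with no filter, and 0 with a minimum of 5 FPKM. Leaving out 1 library at a time gave 0 to 43 genes higher and 1 to 12 lower, the largest counts without HP M. With a replicate block for F2 and M, which left 2 residual degrees of freedom, 0 genes passed in either direction. The calls of Snora65 and Gm24924, the only ones of the main fit, were thus both lost. Genes with all HP libraries above LP, 1742, numbered 2759 with no filter, 1017 with a minimum of 5 FPKM and 2980 with haemoglobin and mitochondrial genes left out of the total. Those with all below, 2758, numbered 1786 after scaling to the same FPKM sum and 1375 with that rescaling. The cause of these shifts was not tested. Of 147 genes followed singly (those with an unadjusted p under 0.05, the fixed set and others the text names), 50 came past the adjusted threshold with the sex letter, 26 without HP M and 22 with array weights, and 5 reversed. Cltrn (-0.15) was at 0.12 with quantile normalization and 0.0064 with haemoglobin and mitochondrial genes left out of the total. With the sex letter and without LP M, Aqp1 (0.04) was at -0.0203 and Xist (-0.77) at 0.21. Ddx3y (-0.39) was at 0.27 with the replicate block and 0.14 with the sex letter. Leaving out 1 library at a time gave -0.0629 to 0.147 for Aqp1, -1.84 to 1.06 for Ddx3y, -0.14 to 0.83 for Spp1 and -1.67 to 0.57 for Xist.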

Other observations

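Ribosomal protein genes, looked at as a group after their values were seen and so without a test, lay below 0 in 83 of 83 genes tested, with a median of -0.50 on the log2(FPKM + 1) scale, and -0.46 to -0.26 with other scalings. They code for the protein part of the ribosome. In 76 of the 83 all HP libraries were below both LP libraries, where 20.3% of all genes were. An unadjusted p under 0.05 was reached by 59, all lower, against 7.32% of all genes. With the sex letter 20 passed as lower, against 0.973% of all genes. Their summed level was 75864 and 73594 FPKM in LP F2 and LP M, 59521, 69261 and 49588 FPKM in NP F2, NP KO7 and NP M, and 52021, 60965 and 47245 FPKM in HP F1, HP F2 and HP M. The median was -0.31 in the F2 pair and -0.64 in the M pair. Rpl14, the member with the smallest p, was at 672 and 638 FPKM on LP and 381, 389 and 360 FPKM on HP (-0.80 ± 0.15, limma adjusted p = 0.176).

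Snord13, a small nucleolar RNA chosen after its values were seen, was at 21.2 and 102 FPKM on LP and 9.52, 61.8 and 12.9 FPKM on NP, and was listed at 0 in all 3 HP libraries (limma adjusted p = 0.0627).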
